A study of Mus musculus with 121 samples.

Results

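The genes described here are 32 genes of DNA repair and of the damage checkpoint, followed through 6 mouse tumours after gamma rays or carbon ions. They were taken by gene symbol from the probe annotation of the array, with the brightest probe of a gene kept among those with a value on at least 90% of the arrays. Of the 32 genes, 31 had such a probe. Polh, a translesion polymerase, had none. Of these 31 genes, 30 were bright enough to be tested among 12962 genes in all, and Atr, the kinase activated by stalled replication forks, fell below the brightness limit.

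Cells mend DNA damage by routes that recognise different lesions. Base excision repair cuts out single oxidised or deaminated bases, which is the main route for the base damage that radiation leaves behind. Nucleotide excision repair removes bulky or distorting lesions, and mismatch repair corrects errors left by the replication fork. Breaks through both strands, the lesion that kills irradiated cells most often, are either joined end to end by the Ku and DNA-PK proteins at any stage of the cell cycle or copied from the sister chromatid by homologous recombination in S and G2 phase. Many recombination, Fanconi anaemia and mismatch genes are transcribed mainly in cycling cells, so that their level in a tumour also follows how much of the tissue is dividing.

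The tumours grew as transplants in the hind legs of male C3H/HeMs mice and were irradiated locally with 1 dose. They comprised a radiation-induced fibrosarcoma, the fibrosarcoma nfsa, a pair of mammary carcinomas called mmca and mca4, and a pair of squamous carcinomas called scc7 and nrs1. RNA of dissected tumour tissue was labelled with Cy5 and hybridised to 1-colour CodeLink arrays, 81 for gamma rays and 40 for carbon ions. Groups numbered 54, of which 41 had a pair of arrays and 13 had 3. Whether arrays of a group came from separate mice is not stated in the labels, so the p-values measure the spread between these arrays, which may be technical. For gamma rays, 4 tumours (both fibrosarcomas and both mammary carcinomas) had unirradiated arrays and arrays 1 day after 30, 50 and 70 Gy, with later arrays between day 4 and day 41 at 30 or 50 Gy. The later arrays of the radiation-induced fibrosarcoma, nfsa and mca4 were set against unirradiated arrays of day 1, whereas mmca had unirradiated arrays of day 9 as well. For carbon ions at 30 Gy, mmca and mca4 had unirradiated arrays and arrays at hour 6 and days 1, 3, 5 and 20. The other 4 tumours had no unirradiated carbon-ion arrays, and scc7 and nrs1 had none for gamma rays either.

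Values are log2 intensities, and a difference of 1 is 2-fold. A gene was called, and is written as having risen or fallen, when its adjusted p from limma (Benjamini-Hochberg over all tested genes, 2-sided) was under 0.05. Between 9.99% and 18.62% of probes had no value on a gamma-ray array, against 0.541% to 4.922% on a carbon-ion array, so the beams were compared with each other nowhere by a test. The p53 targets Cdkn1a and Ccng1 rose 1 day after gamma rays, by 1.996 and 1.54, and 6 hours after carbon ions, by 1.06 and 1.10. The epithelial average, taken over 3 genes of the list, lay between 3.95 and 6.90 in mmca, mca4 and nrs1. In scc7 it lay between -1.09 and -0.67, the range of the fibrosarcomas (-1.23 to -0.36). The label of scc7 as a squamous carcinoma is not borne out by these 3 genes, which are too few to decide it. In bulk tissue, fewer cells of a type and less RNA per cell cannot be told apart.

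Promoter sequence of the genes on which the results turn is shown here because a group of recombination and Fanconi genes moved together in several comparisons, while Ung and Mgmt moved in opposite directions. RefSeq held windows of the 250 bases before the start for 24 of the 32 genes, 27 windows in all. The letters CCAAT, read on both strands, stood in 15 of these 27 windows, from 14 genes, and in 33.8% of all 32851 RefSeq windows of that length. The letters GGGCGG, a GC box, stood in 17 of the 27 windows, from 16 genes, and in 32.7% of all windows. A match is a description of the letters and not a site shown to be used, and the genes shown were chosen after their values were seen. The motif and the stretch were also set gene by gene, and every stretch shown holds its motif. The lines therefore do not show how common a motif is among genes that moved together. Of the recombination and Fanconi genes, Brca2 and Fancd2 are not shown. Each line below gives 100 bases of GRCm38.p6, 5′ to 3′ on the strand of the gene, with the motif in capitals. In Rad51ap1 (chr6:126939588-126939687, minus strand), Fanca (chr8:123318577-123318676, minus), Rad54l (chr4:116123690-116123789, minus) and Brca1 (chr11:101551956-101552055, minus) these are the last 100 bases before the start and the motif is CCAAT. In Blm (chr7:80535099-80535198, minus) they are bases 200 to 101 before the start, again with CCAAT. In Ung (chr5:114130335-114130434, plus) and Mgmt (chr7:136894486-136894585, plus) they are the last 100 bases and the capitals mark the GC box. ATTGG and CCGCCC are the same motifs on the other strand.
Rad51ap1: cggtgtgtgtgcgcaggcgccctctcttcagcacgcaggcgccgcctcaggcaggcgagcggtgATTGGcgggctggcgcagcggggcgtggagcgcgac
Fanca: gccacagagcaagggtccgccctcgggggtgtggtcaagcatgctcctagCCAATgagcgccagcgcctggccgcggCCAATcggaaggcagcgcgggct
Rad54l: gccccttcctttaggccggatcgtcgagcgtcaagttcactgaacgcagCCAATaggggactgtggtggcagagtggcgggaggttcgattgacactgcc
Brca1: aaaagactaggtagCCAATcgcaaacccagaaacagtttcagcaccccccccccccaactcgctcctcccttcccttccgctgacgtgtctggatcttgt
Blm: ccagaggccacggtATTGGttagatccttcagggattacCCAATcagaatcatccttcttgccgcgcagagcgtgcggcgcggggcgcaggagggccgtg
Ung: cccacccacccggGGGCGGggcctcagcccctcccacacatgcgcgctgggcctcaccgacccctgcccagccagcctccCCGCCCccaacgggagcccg
Mgmt: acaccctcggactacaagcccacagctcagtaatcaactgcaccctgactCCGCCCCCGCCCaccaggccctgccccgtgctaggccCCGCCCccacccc
The motif began 36 bases before the start in Rad51ap1, 51 in Rad54l and 86 in Brca1, with a pair in Fanca at 50 and 23 and a pair in Blm at 186 and 161. The Mgmt stretch held 3 overlapping or neighbouring GC boxes, at 50, 44 and 13 bases before the start.

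Before irradiation Ercc1, Prkdc and Pif1 were higher and Ddb2 and Mgmt lower in the fibrosarcomas than in the mammary carcinomas. Across the unirradiated gamma-ray arrays, 11 of 30 genes were higher in the fibrosarcomas and 11 lower, beside 41.3% of all genes higher and 26.1% lower (either direction, 67.4%), a share near that of the members. With each group averaged to 1 value 1 of the 30 genes was called, and 5 had an unadjusted p under 0.05. Ercc1, which forms the nuclease that cuts 5′ of a bulky lesion, stood at 5.86 and 5.97 in the radiation-induced fibrosarcoma and 4.66 and 4.93 in nfsa, against 2.82 and 2.83 in mmca and 3.51 and 3.26 in mca4. The difference was 2.25 (SE 0.12, adjusted p = 9.56e-28 in limma), and no array of one kind overlapped the other. Prkdc, the catalytic subunit of DNA-PK, was higher in the fibrosarcomas by 1.52 and Pif1, a helicase that unwinds G-quadruplexes, by 1.5. Ogg1, the glycosylase for 8-oxoguanine, was higher by 0.91, but its mean in mca4 (2.80) lay between those of the radiation-induced fibrosarcoma (3.10) and nfsa (2.24), and mmca alone was low (0.71). Lower in the fibrosarcomas were Ddb2, the damage sensor of nucleotide excision repair (-1.68), Mgmt, the methyltransferase that takes alkyl groups directly off guanine (-1.60), and Xrcc5, which encodes the Ku80 subunit that caps broken ends (-1.31). For Xrcc5 the nfsa arrays were at or next to the floor of -2.98, so the size is not exact, and the radiation-induced fibrosarcoma (-2.01 and -2.18) overlapped mca4 (-2.25 and -1.60). Mgmt stood at -0.47 and -0.17 in the radiation-induced fibrosarcoma and at -1.77 and -1.67 in nfsa, against 0.45 and 0.51 in mmca and 0.89 and 0.48 in mca4. Markers of other compartments differed too: 10 of 10 macrophage genes, 11 of 11 muscle genes and 19 of 22 mitosis genes were higher in the fibrosarcomas. The muscle list stood at 6.04 and 5.69 in the fibrosarcomas, 5.78 in mca4 and -0.44 in mmca, so that mmca alone was low, and the part of these lists in these differences was not tested.

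One day after gamma rays, averaged over the 3 doses and the 4 tumours, Mgmt rose most and Ogg1 and Ung fell most. Of the 30 genes, 6 rose and 12 fell, beside 24.8% of all genes higher and 34.7% lower (either direction, 59.4%). Their median difference was -0.06, against -0.04 over all genes. The genes that rose were Mgmt, the translesion polymerase Polk, the checkpoint kinase Chek2, Xrcc5, Ddb2 and Rad50, a subunit of the complex that holds broken ends. Base excision genes leaned the other way, with 5 of 6 lower, none higher and a median of -0.52. Recombination, end joining and nucleotide excision genes moved in different directions in different tumours and had few calls in the average. Averaging each group to 1 value, which discards the spread between arrays of a group, left 4 of the 18 calls, with 10 genes at an unadjusted p under 0.05.

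**Figure D1:**
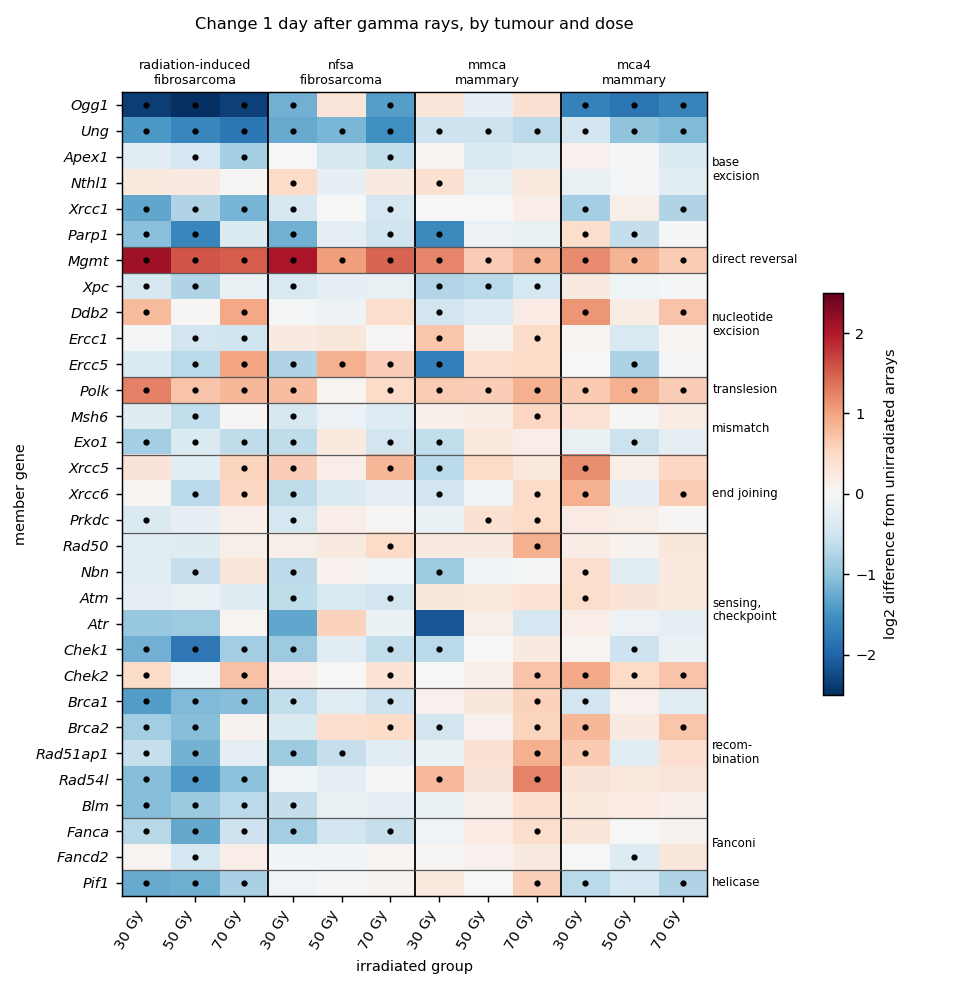
Log2 difference from unirradiated arrays 1 day after gamma rays for 31 genes (rows, grouped by pathway) in 12 groups of tumour and dose in Gy (columns), on a colour scale from blue (lower) to red (higher), with a dot where limma's adjusted p was under 0.05. The Mgmt row is red with a dot in all 12 columns and the Ung row blue with a dot in all 12, whereas the rows of Rad54l and Blm are blue with a dot at each dose in the radiation-induced fibrosarcoma and Rad54l is red in mmca.

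Mgmt was higher than unirradiated arrays in each of the 12 groups of tumour and dose, by 0.61 to 2.13, and Ung, the glycosylase that removes uracil, was lower in each of the 12, by 0.45 to 1.80 on the log2 scale. In the radiation-induced fibrosarcoma Mgmt went from -0.47 and -0.17 to 1.92 and 1.70 after 30 Gy, 1.34 and 1.19 after 50 Gy, and 1.15 and 1.23 after 70 Gy. In nfsa it went from -1.77 and -1.67 to 0.19 and 0.43, -0.84 and -0.52, and -0.27 and -0.26. In mmca and mca4 the 30 Gy arrays lay at 1.72 and 1.67 and at 1.92 and 1.80. No irradiated array of these groups overlapped the unirradiated arrays of its tumour. Averaged over tumours and doses the rise was 1.26 (SE 0.07, adjusted p = 6.34e-24 in limma).

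Ung stood at 1.22 and 1.76 in the unirradiated radiation-induced fibrosarcoma and between -0.32 and 0.08 on its 6 irradiated arrays of day 1. In nfsa it stood at 1.64 and 1.76 before and between 0.09 and 0.59 after, in mmca at 1.96 and 1.86 before and between 1.24 and 1.52 after, and in mca4 at 2.44 and 2.03 before and between 1.12 and 1.82 after. The ranges did not overlap in any of the 4 tumours. The average fall was by 1.09 (SE 0.07, adjusted p = 1.41e-23 in limma).

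Ogg1 fell by 1.18 on average, but its size depended on the tumour. In the radiation-induced fibrosarcoma it fell by 2.40, from 3.11 and 3.09 to between 0.34 and 0.81 on the 5 arrays that had a value. In mca4 it fell by 1.73, from 2.87 and 2.74 to between 0.88 and 1.22. Unirradiated carbon-ion arrays of mca4 averaged 1.40, against 2.80 on these gamma-ray arrays. In mmca the averages ran the other way, 1.63 on carbon-ion and 0.71 on gamma-ray arrays. The cause of either difference was not tested. In nfsa the 30 and 70 Gy arrays lay between 0.82 and 1.15, below the unirradiated 2.12 and 2.35, while the 50 Gy arrays lay at 2.38 and 2.69. In mmca Ogg1 started at 0.59 and 0.83 and differed by 0.16 after irradiation, which was not called (1 of its 30 Gy arrays had no value). The unirradiated level of Ogg1 in mmca was thus within the range that the other tumours reached after irradiation.

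Of the other base excision genes, Xrcc1, Parp1 and Apex1 fell in both fibrosarcomas, Xrcc1 also in mca4 and Parp1 also in mmca. The sizes of these falls did not split by kind of tumour. Xrcc1, the scaffold that brings ligase to a nick, fell by 1.07 in the radiation-induced fibrosarcoma, 0.28 in nfsa and 0.48 in mca4, and differed by 0.06 in mmca. After 50 Gy Xrcc1 averaged 5.28 in mca4, against 5.14 unirradiated, and 4.517 in nfsa, against 4.535. Parp1, which senses strand breaks and marks them with poly(ADP-ribose), fell by 1.00, 0.65 and 0.65 in the radiation-induced fibrosarcoma, nfsa and mmca and differed by -0.07 in mca4. Apex1, the endonuclease that cuts at abasic sites, fell by 0.52 and 0.33 in the fibrosarcomas. Nthl1, a glycosylase for oxidised pyrimidines, was called in none of the 4 tumours averaged over doses. In all, 5 of 6 base excision genes fell in the radiation-induced fibrosarcoma (32.4% of all genes lower), 5 in nfsa (19.7%), 3 in mca4 (21.4%) and 2 in mmca (15.0%), and none rose.

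Nucleotide excision and translesion genes behaved one by one. Polk, which copies past bulky adducts, rose in all 4 tumours, by 0.93 in the radiation-induced fibrosarcoma, 0.71 in mmca and mca4 and 0.44 in nfsa. In the radiation-induced fibrosarcoma it went from 2.89 and 2.76 to 4.08 and 4.07 after 30 Gy, above all of its other day 1 arrays. Ddb2 rose by 0.60 there and by 0.67 in mca4, and differed by 0.09 in nfsa and -0.20 in mmca. Xpc, the other damage sensor of the pathway, fell by 0.45 in the radiation-induced fibrosarcoma and by 0.61 in mmca. Ercc1 fell by 0.33 in the radiation-induced fibrosarcoma and rose by 0.42 in mmca. Ercc5, the nuclease of the 3′ cut, had no call in any of the 4 tumours averaged over doses, although single doses differed from each other.

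**Figure D2:**
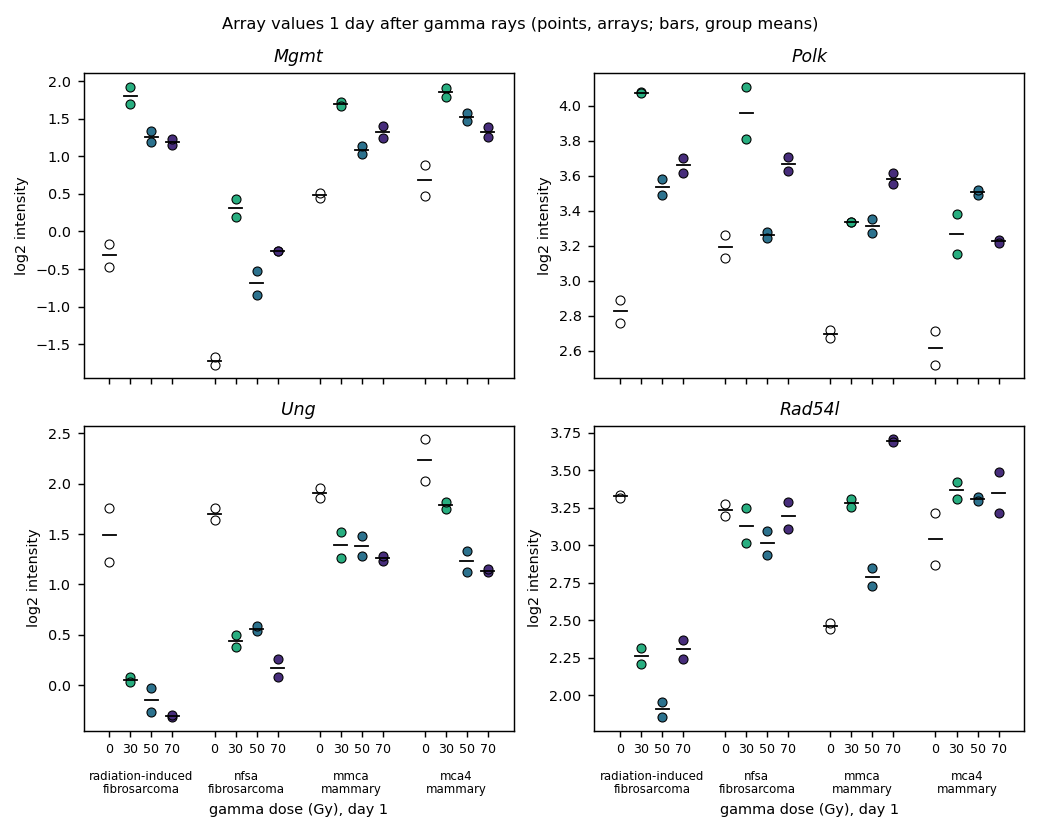
Log2 intensity of Mgmt, Polk, Ung and Rad54l on each array of day 1 (points), with the mean of each group (bars), at 0, 30, 50 and 70 Gy of gamma rays in 4 tumours. Mgmt and Polk sit higher and Ung lower after irradiation in each tumour, while Rad54l is lower in the radiation-induced fibrosarcoma and higher in mmca.

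End joining, mismatch and checkpoint genes had changes of both directions on day 1. Averaged over doses, the Ku genes rose in mca4, Xrcc5 by 0.61 and Xrcc6 (Ku70) by 0.44, and Xrcc6 fell by 0.40 in nfsa. After 50 Gy alone, Xrcc5 in mca4 differed by 0.145 and Xrcc6 by -0.2185, and neither was called. A rise of Xrcc5 by 0.54 in nfsa rests on unirradiated arrays that were both at or next to the floor of -2.98, and with the floor at the 10th percentile it was 0.14 and not called. Prkdc was called in none of the 4 tumours averaged over doses. Exo1, the exonuclease that resects mismatched and broken strands, fell by 0.62, 0.28 and 0.32 in the radiation-induced fibrosarcoma, nfsa and mca4, and Msh6, which recognises the mismatch, fell by 0.29 in the first of these. Chek2, which relays the signal of Atm, rose by 0.72 in mca4, 0.37 in the radiation-induced fibrosarcoma (1 unirradiated array without a value) and 0.29 in mmca. In mmca Chek2 averaged 2.179 unirradiated and 2.178, 2.33 and 2.90 after 30, 50 and 70 Gy. After 50 Gy it averaged 1.05 in the radiation-induced fibrosarcoma, against 1.12 unirradiated. Chek1, the kinase of the replication checkpoint, fell by 1.29 in the radiation-induced fibrosarcoma, from 2.56 and 2.29 to between 0.52 and 1.57, and by 0.60 in nfsa. Atm itself, the kinase that double-strand breaks activate, rose by 0.30 in mmca and 0.33 in mca4 and fell by 0.49 in nfsa.

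Recombination genes moved in different directions in the tumours. Averaged over doses, all 5 of them fell in the radiation-induced fibrosarcoma, with a median of -0.89, and 2 of 5 fell in nfsa, beside 32.4% and 19.7% of all genes lower. In the radiation-induced fibrosarcoma Brca2 averaged 0.115 unirradiated and -0.76, -0.96 and 0.198 after 30, 50 and 70 Gy, so that it was not lower at 70 Gy. In mmca and mca4 none fell and 1 rose in each, beside 18.0% and 21.3% of all genes higher: Rad54l, a DNA translocase of recombination, in mmca (0.79) and Brca2, a mediator of recombination, in mca4 (0.58). Rad54l stood at 3.33 and 3.32 in the unirradiated radiation-induced fibrosarcoma and at 2.32 and 2.21, 1.86 and 1.96, and 2.25 and 2.37 after 30, 50 and 70 Gy. In mmca it went from 2.44 and 2.48 to 3.31 and 3.25, 2.73 and 2.85, and 3.71 and 3.69. Irradiated arrays lay below all unirradiated arrays in the first tumour and above them in the other. Brca1, which steers breaks towards recombination, fell in the radiation-induced fibrosarcoma by 1.19, from 4.49 and 4.33 to 3.02 on both 30 Gy arrays. There the helicase Blm fell by 0.89, Rad51ap1 by 0.66 and Fanca, a subunit of the Fanconi core complex, by 0.83. Pif1 fell by 1.10 in the radiation-induced fibrosarcoma and by 0.62 in mca4. Fancd2, which the core complex ubiquitinates, was called in none of the 4 tumours averaged over doses. Replication and mitosis genes changed on the same arrays: 16 of 18 replication genes and 14 of 22 mitosis genes fell in the radiation-induced fibrosarcoma, 16 of 22 mitosis genes rose in mmca and in mca4, with replication genes 4 up and 0 down and 3 up and 3 down, and in nfsa 15 of 18 replication genes fell while mitosis genes split 3 up and 2 down. Their part in the changes of recombination genes was not tested.

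By tumour, counts over the 30 genes were 4 up and 17 down in the radiation-induced fibrosarcoma (18.5% and 32.4% of all genes), 7 up and 4 down in mmca (18.0% and 15.0%), 3 up and 12 down in nfsa (9.32% and 19.7%) and 8 up and 5 down in mca4 (21.3% and 21.4%). Called in either direction were 50.9%, 33.1%, 29.0% and 42.8% of all genes in that order. Over all genes the median was -0.11, 0.01, -0.07 and -0.00 in the same order, against -0.39, 0.14, -0.23 and 0.13 for the repair genes. Without the first unirradiated array of mmca the calls there dropped from 11 to 7, and without the second of nfsa they dropped from 15 to 7. Quantile normalization, which forces the same distribution on every array, moved the count in mmca to 12 up and 3 down and that of all genes from 2328 up and 1936 down to 3416 and 1352.

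A direct test of the change in the fibrosarcomas minus that in the mammary carcinomas called 16 of the 30 genes, 15 lower and 1 higher, beside 17.5% and 4.37% of all genes (either direction, 21.9%). The median was -0.34 against -0.09 over all genes. All 5 recombination genes were among them, led by Rad54l (-1.19, SE 0.14, adjusted p = 2.06e-09 in limma), Rad51ap1 (-0.94) and Brca1 (-0.88). Fanca (-0.89), Ogg1 (-0.79), Chek1 (-0.77), Ung (-0.76) and Atm (-0.68) followed, although Ogg1 fell further in mca4 than in nfsa. Mgmt alone was higher, by 0.74, and the fibrosarcomas also had its lower unirradiated level. None of the 4 nucleotide excision genes differed, nor did Polk (-0.03), Chek2 (-0.24) or Fancd2 (-0.10). In the same contrast 16 of 18 replication genes and 18 of 22 mitosis genes were lower, as were 6 of 10 macrophage genes. Prkdc (-0.29) was called by a narrow margin and lost its call without any 1 of 14 of the 32 arrays.

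**Figure D3:**
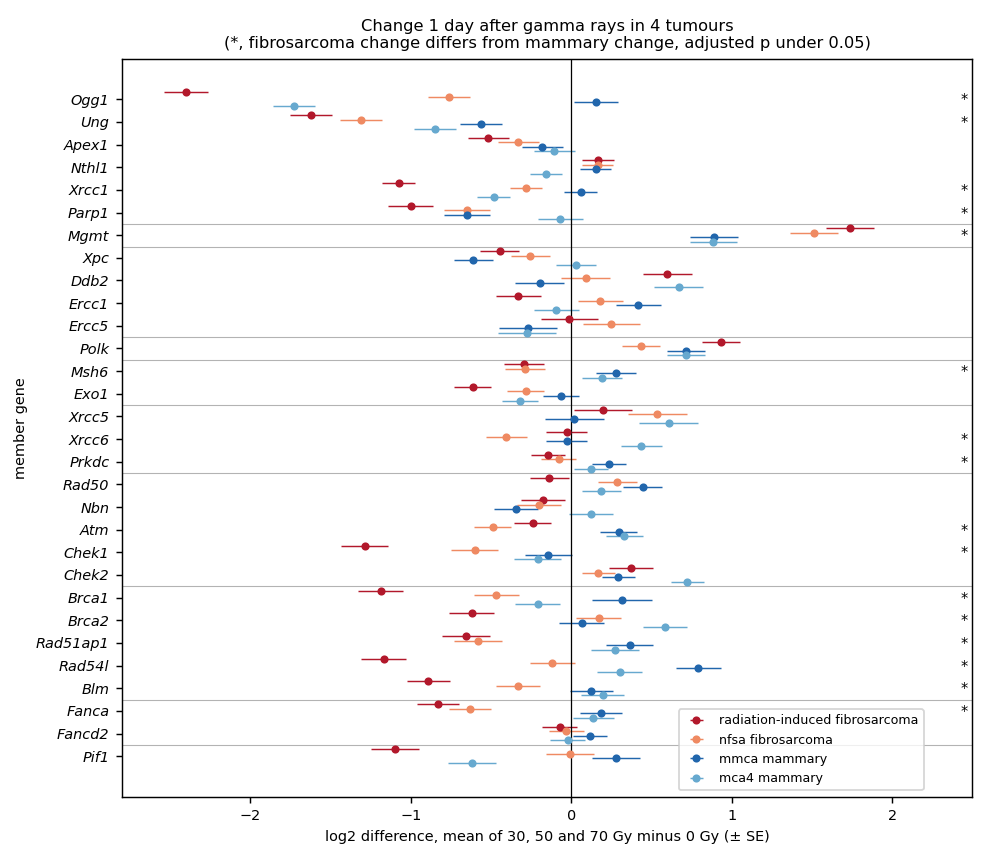
Log2 difference 1 day after gamma rays, mean of 30, 50 and 70 Gy minus 0 Gy, for 30 genes (rows by pathway) in 4 tumours (colours), with bars of 1 SE; an asterisk marks the 16 genes whose change in the fibrosarcomas differed from that in the mammary carcinomas (limma, adjusted p under 0.05). The red points of the radiation-induced fibrosarcoma lie furthest left for all 5 recombination genes, for Ogg1, Xrcc1 and Chek1, while all 4 points of Polk lie right of 0.

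Ercc5, Brca2 and Parp1 were higher at 70 than at 30 Gy of gamma rays on day 1, and Mgmt and Apex1 lower. Averaged over 4 tumours, 17 of 30 genes were higher at 70 than at 30 Gy and 5 were lower, beside 23.7% and 26.5% of all genes (either direction, 50.2%), and the median was 0.21 against -0.01. Quantile normalization moved the median of all genes to 0.17, with 6215 genes up and 1114 down against 3067 and 3421, and gave 23 repair genes up and 2 down. With missing values at the floor together with quantile normalization 14 of the 30 genes were called, and with each group averaged to 1 value 1 was called, with 6 at an unadjusted p under 0.05. The share of probes without a value was 10.4% to 11.4% on 70 Gy arrays and 13.6% to 15.3% on 30 Gy arrays of day 1, and its part in these differences was not tested. Ercc5 differed most, by 1.19 (SE 0.11, adjusted p = 1.2e-14 in limma). In mmca it stood at 1.09 and 0.97 unirradiated, at -0.55 and -0.81 after 30 Gy and at 1.54 and 1.44 after 70 Gy. Parp1 in mmca followed the same course, from 3.66 and 3.63 to 2.17 and 1.89 after 30 Gy and 3.47 and 3.43 after 70 Gy, with 50 Gy arrays at 3.53 and 3.46. The 30 Gy arrays of mmca lay below both the lower and the higher doses in each case.

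Mgmt and Apex1 ran the other way between doses. Mgmt was 0.52 lower at 70 than at 30 Gy, with values of -0.62, -0.37, -0.57 and -0.53 in the radiation-induced fibrosarcoma, mmca, nfsa and mca4, of which that in mmca was not called. Cdkn1a was 1.10 lower at 70 than at 30 Gy. Apex1 was lower by 0.50, but under quantile normalization by 0.10 and without a call. Brca2 was higher at 70 Gy by 0.66, Nbn, the subunit that recruits Atm to breaks, by 0.46 and Rad51ap1 by 0.45. In mmca 17 genes were higher at 70 Gy and none lower (19.4% and 9.32% of all genes), in the radiation-induced fibrosarcoma 7 and 4 (9.13% and 14.9%), in nfsa 7 and 2 (10.3% and 17.3%), and in mca4 none and 4 (4.32% and 7.50%). The rise of Prkdc with dose (0.36) rests on its brightest probe: averaged with its second probe the difference was -0.40 and not called.

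Between days 8 and 25 after gamma rays Xrcc5, Ercc5 and Ddb2 had the largest rises and Ogg1 and Pif1 the largest falls among the 30 genes. Averaged over 4 tumours, 11 of 30 genes were higher than unirradiated arrays and 12 lower, beside 34.0% and 39.6% of all genes (either direction, 73.6%), with a median of -0.04 against -0.03. Xrcc5 rose by 1.23, Ercc5 by 0.89, Ddb2 by 0.73 and Nbn by 0.64. Ogg1 fell by 1.77, Pif1 by 0.98, Brca1 by 0.79, Xrcc1 by 0.67 and Fanca by 0.62. In mca4 the unirradiated gamma-ray means of Xrcc5, Ercc5, Ddb2 and Ogg1 were -1.92, 0.14, -0.89 and 2.80. Unirradiated carbon-ion means there were 1.255, 1.60, 0.63 and 1.40, and gamma-ray means of day 11 were 0.43, 1.73, 0.255 and 0.42. In mmca, unirradiated gamma-ray means of day 9 were 0.002, 0.65, 0.52 and 0.97, and carbon-ion means 1.09, 1.66, 0.68 and 1.63. The part of these baselines in the changes was not tested. As a mean of the 4 tumours Mgmt was still higher, by 0.48, and Ung still lower, by 0.37. Each was less than the day 1 value of 1.26 and -1.09, although that difference was not tested. In 3 of the 4 tumours the unirradiated arrays were 7 or more days younger than these. Time of growth and irradiation cannot be told apart there. In mmca the irradiated arrays of day 9 had unirradiated arrays of the same day. Against these, Mgmt differed by -0.022 and Ung by 0.0075 on day 9, and neither was called. Mgmt in mmca averaged 1.176 on day 19, against 1.083 on the unirradiated arrays of day 9. Ung in mmca averaged lower on day 19 than on either group of day 9. The mmca arrays of day 19 were set against unirradiated arrays of day 9, so growth and irradiation cannot be told apart on day 19 either. In mmca, unirradiated arrays of day 9 and day 1 differed in 2 of 30 genes, Mgmt (0.60) and Fancd2 (-0.41), beside 6.85% of all genes higher and 14.4% lower.

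**Figure D4:**
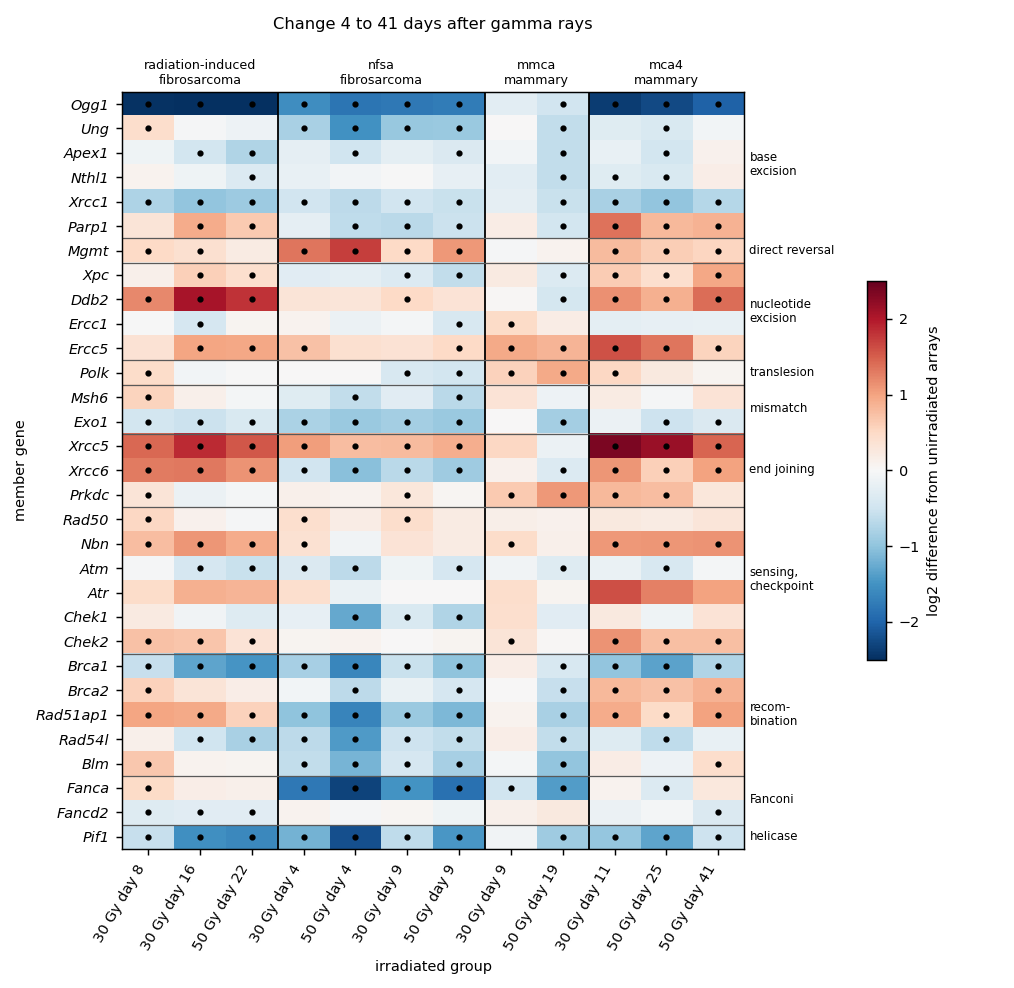
Log2 difference from unirradiated arrays 4 to 41 days after gamma rays for 31 genes (rows by pathway) in 12 groups of tumour, dose and day (columns), on the same colour scale as for day 1, with a dot where limma's adjusted p was under 0.05. The Ogg1 row is deep blue except in mmca, and the Xrcc5 and Ddb2 rows are red in the radiation-induced fibrosarcoma and mca4. The recombination rows and the Fanca row are blue in nfsa and in mmca on day 19.

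End joining genes rose in some tumours and fell in others. In the radiation-induced fibrosarcoma Xrcc5 went from -2.01 and -2.18 to -0.24, -0.48 and 0.04 on day 16, and in mca4 from -2.25 and -1.60 to 0.42, 0.27 and 0.60 on day 11. Over days 8 to 25 the rise was 1.62 in the first tumour and 2.26 in the second (adjusted p = 1.01e-17 in limma), and 0.18 without a call in mmca. In nfsa, where unirradiated arrays were at or next to the floor, the rise of 0.84 became 0.33 and lost its call with the floor at the 10th percentile. Xrcc6 rose by 1.25 in the radiation-induced fibrosarcoma, from 2.15 and 2.25 to 3.56, 3.39 and 3.53 on day 8, and by 0.85 in mca4, and fell by 0.78 in nfsa. Prkdc rose by 0.87 in mmca, from 0.80 and 0.77 on the unirradiated arrays of day 9 to 1.84, 1.92 and 1.83 on day 19, and by 0.79 in mca4. Averaging its probes ended both of these calls.

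Nucleotide excision genes rose in several tumours. Ddb2 rose by 1.69 in the radiation-induced fibrosarcoma, from -2.40 and -2.24 to -0.10, -0.76 and 0.07 on day 16, and by 1.01 in mca4. Ercc5 rose in all 4 tumours, by 0.77, 0.90, 0.43 and 1.47 in the radiation-induced fibrosarcoma, mmca, nfsa and mca4, but in nfsa it differed by -0.05 without the first unirradiated array and was no longer called. Xpc rose by 0.38 and 0.52 in the radiation-induced fibrosarcoma and mca4 and fell by 0.48 in nfsa. In the radiation-induced fibrosarcoma and in mca4, 3 of 4 nucleotide excision genes rose and none fell, beside 28.1% and 28.6% of all genes higher.

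Ogg1 was lower than on unirradiated arrays in each tumour, by 2.63, 0.37, 1.76 and 2.32 on the log2 scale in the radiation-induced fibrosarcoma, mmca, nfsa and mca4, and in the first of these all 9 arrays of days 8 to 22 lay between 0.26 and 0.69, against 3.11 and 3.09 unirradiated. Xrcc1 fell in all 4 tumours, by 0.88, 0.38, 0.51 and 0.90, as did Exo1, by 0.46, 0.43, 0.89 and 0.33, and Pif1, by 1.24, 0.49, 1.04 and 1.14. Ung, lower by 1.62 on day 1 in the radiation-induced fibrosarcoma, differed there by 0.09. Parp1 rose by 0.64 in that tumour and 1.08 in mca4 and fell by 0.61 in nfsa.

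Recombination genes differed by tumour. Brca1 fell by 1.13, 0.77 and 1.16 in the radiation-induced fibrosarcoma, nfsa and mca4, while Rad51ap1 rose by 0.84 and 0.70 and Brca2 by 0.36 and 0.78 in the radiation-induced fibrosarcoma and mca4. In nfsa 4 of 5 recombination genes fell, with a median of -0.63, and Fanca fell by 1.67. Fanca there went from 1.23 and 1.53 to -1.0, -1.15 and -0.64 at day 4 after 50 Gy and to between -0.52 and -0.44 on day 9. In mmca Fanca fell by 0.94 and Blm by 0.52, and most falls lay on day 19 after 50 Gy, when 18 genes fell and 3 rose (23.0% and 27.6% of all genes), rather than on day 9 after 30 Gy, when Fanca alone fell and 6 rose (6.46% and 16.5%). Dose and day differ together in that pair. On day 19 of mmca 21 of 22 mitosis genes were lower and 10 of 10 macrophage genes higher, with the macrophage list at 5.03 against 2.63 in the unirradiated arrays of day 9, and their part was not tested.

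By tumour over days 8 to 25, counts were 11 up and 9 down in the radiation-induced fibrosarcoma (28.1% and 39.5% of all genes), 3 and 9 in mmca (25.6% and 16.8%), 5 and 18 in nfsa (24.5% and 33.0%) and 13 and 10 in mca4 (28.6% and 35.1%). Called in either direction were 67.7%, 42.4%, 57.5% and 63.7% of all genes in that order. Medians were 0.16, -0.13, -0.45 and 0.08, against -0.10, 0.04, -0.07 and -0.06 over all genes. Under quantile normalization, nfsa had 0 up and 20 down (all genes 2185 up and 5621 down, against 3172 and 4264) and mmca 3 up and 17 down (2198 and 4473, against 3318 and 2172). Without the second unirradiated array of day 9 the 12 calls in mmca dropped to 7.

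Carbon ions gave a time course in mmca and mca4 that began with Pif1 and Ung. At hour 6 after 30 Gy, 1 gene rose and 5 fell as the mean of both tumours, beside 5.06% and 4.48% of all genes (either direction, 9.54%). Pif1 fell by 2.44 (SE 0.13, adjusted p = 2.74e-25 in limma). In mmca it went from 2.03 and 2.26 to -0.38 and -0.33 and was back at 1.57 and 1.58 on day 1. In mca4 it went from 1.96 and 1.85 to -0.60 and -0.34 and was at 1.39 and 1.40 on day 1. Both arrays of hour 6 lay below all day 1 arrays in each tumour. At hour 6, 19 of 22 mitosis genes were lower (median -1.01) and 1 of 18 replication genes, and on day 1 the mitosis list stood at 4.499 in mmca and 4.59 in mca4, near its unirradiated 4.59 and 4.44. Ung fell by 0.66, Chek2 by 0.44, Parp1 by 0.37 and Nbn by 0.35, and Polk rose by 0.40. Parp1 and Nbn had adjusted p of 0.0421 and 0.0486 in limma and lost their calls without any 1 of 7 of the 8 arrays. Of the 5 recombination genes none was called at hour 6 in limma, and none had an unadjusted p under 0.05. A fit on carbon-ion arrays alone called 15 of the 30 genes at hour 6, 5 up and 10 down.

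On day 1 after carbon ions 1 gene rose and 7 fell, beside 4.17% and 3.83% of all genes (either direction, 8.00%), and the fit on carbon-ion arrays alone called 15. Ung fell by 1.19 and Mgmt rose by 0.55. Chek1 (-0.47), Apex1 (-0.45), Prkdc (-0.41), Nbn (-0.52), Nthl1 (-0.34) and Pif1 (-0.54) fell. Gamma rays at the same dose and time were measured on a different set of arrays, so beam and array set cannot be told apart, and values are given side by side only. For Ung, gamma-ray arrays of mmca went from 1.96 and 1.86 to 1.52 and 1.26 after 30 Gy and carbon-ion arrays from 2.76 and 2.31 to day 1 with a difference of -1.42. For Pif1 in mmca the gamma-ray arrays stood at 2.09 and 2.07 after 30 Gy, above both unirradiated arrays. Ogg1, which fell by 1.73 in mca4 after gamma rays, stood at 1.45 and 1.35 before carbon ions and 1.77 and 1.42 on day 1 after them.

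From day 3 onward most of the repair genes were lower. Counts were 2 up and 21 down on day 3 (17.3% and 25.6% of all genes, either direction 42.9%), 2 and 23 on day 5 (22.1% and 38.5%, either 60.6%) and 2 and 24 on day 20 (27.3% and 43.7%, either 71.0%). Medians were -0.46, -0.74 and -0.91, against -0.08, -0.12 and -0.14 over all genes. With missing values set to the floor and quantile normalization together, 15 genes were called on day 3, and with quantile normalization alone 18. The 5 recombination genes fell together, with medians of -0.68, -1.06 and -1.76, and so did the 6 base excision genes, with 5 of 6 called on day 3 and 6 of 6 on days 5 and 20 (medians -0.60, -0.81 and -0.98). Both mismatch genes fell on each day (medians -0.62, -1.01 and -1.37), and 5 of 5 tested sensing and checkpoint genes fell on day 20. Of the 4 nucleotide excision genes 2 fell by day 20, and their median was -0.23.

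**Figure D5:**
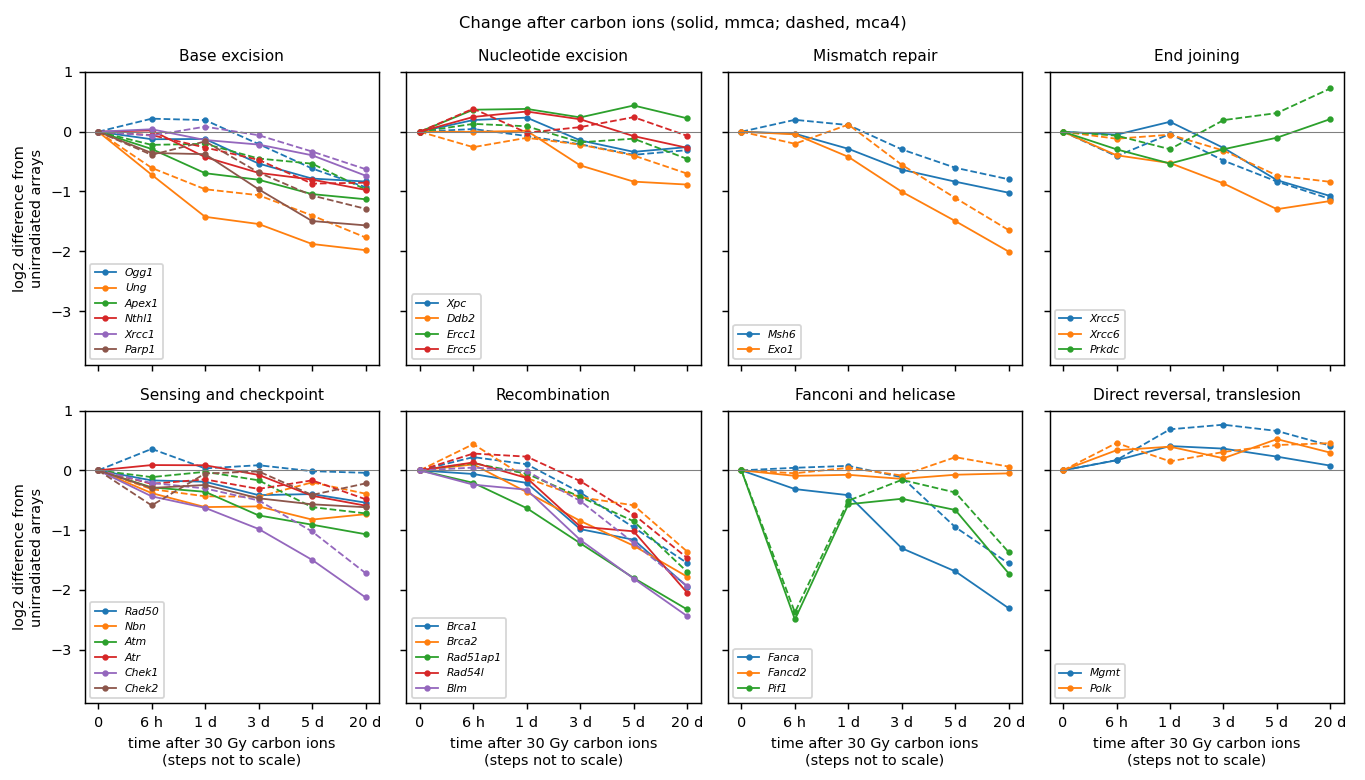
Mean log2 difference from unirradiated arrays at hour 6 and days 1, 3, 5 and 20 after 30 Gy of carbon ions, in mmca (solid) and mca4 (dashed), in 8 panels by pathway (2 arrays a point; Atr is drawn although it was too dim to test; time steps are not to scale). Recombination genes lie between -0.63 and 0.44 through day 1 and between -2.44 and -1.36 on day 20, Pif1 dips at hour 6, and on day 20 Mgmt, Polk and Prkdc lie above 0 in both tumours.

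Blm had the lowest value on day 20, a fall by 2.19 (SE 0.12, adjusted p = 5.55e-27 in limma). It went from 3.18 and 3.28 to 0.76 and 0.83 in mmca and from 2.54 and 2.59 to 0.68 and 0.57 in mca4. Rad51ap1 fell by 2.01, from 2.23 and 2.44 to -0.06 and 0.08 in mmca and from 1.83 and 1.74 to 0.13 and 0.05 in mca4. Fanca fell by 1.93, Chek1 by 1.92, Exo1 by 1.83, Rad54l by 1.76, Brca1 by 1.75 and Brca2 by 1.57. The day 20 arrays of Blm and Rad51ap1 lay below all earlier arrays of their tumour.

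Ung had its fall from the start, by 0.66, 1.19, 1.30, 1.64 and 1.88 at hour 6 and days 1, 3, 5 and 20, whereas Blm was first called on day 3 (-0.84) and reached -1.51 on day 5. Ung went from 2.76 and 2.31 to 0.46 and 0.64 in mmca and from 2.17 and 2.38 to 0.56 and 0.45 in mca4 by day 20. Parp1 fell by 1.43, Apex1 by 1.05, Nthl1 by 0.91, Ogg1 by 0.88 and Xrcc1 by 0.68 by that day. Among end joining genes Xrcc5 fell by 1.10 and Xrcc6 by 1.00, from 4.15 and 4.39 to 3.12 and 3.10 in mmca.

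A few genes stood apart from this fall. Prkdc rose by 0.47 on day 20, from 0.76 and 1.07 to 1.69 and 1.59 in mca4, whereas in mmca it was at 1.53 and 1.52 before and 1.73 and 1.75 after, and with its probes averaged the rise was 0.21 and not called. Polk rose by 0.38. Mgmt, higher by 0.55 on day 1, 0.56 on day 3 and 0.44 on day 5, differed by 0.25 on day 20, which was not called. Ercc1 (-0.12), Ercc5 (-0.17) and Fancd2 (0.01) were not called. Ercc1 fell by 0.46 in mca4 alone and differed by 0.22 in mmca (36.0% of all genes lower in mca4). Fancd2 stood at 0.63 and 0.65 before and 0.60 and 0.57 on day 20 in mmca.

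Other compartments of the tissue moved over the same days. By day 20 all 22 mitosis genes and all 18 replication genes tested were lower, with medians of -1.89 and -1.75, and the mitosis list went from 4.59 to 2.52 in mmca and from 4.44 to 2.63 in mca4. Macrophage genes were higher in 10 of 10, with the list at 3.47 and 3.27 before and 5.36 and 5.60 on day 20 in mmca and mca4, and 10 of 10 fibroblast matrix genes and 12 of 13 muscle genes were higher. Their part in the fall of the repair genes was not tested.

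The courses of mmca and mca4 over days 1 to 5 differed in 1 of 30 genes, beside 0.394% of all genes higher and 0.178% lower (either direction, 0.572%). Fanca fell further in mmca, by 0.81 (SE 0.18, adjusted p = 0.0186 in limma). It went from 1.94 and 2.30 to 0.76 and 0.88 on day 3 in mmca and from 1.58 and 1.59 to 1.43 and 1.52 in mca4. Rad51ap1 differed by -0.77 (adjusted p = 0.0664). The median over the 30 genes was -0.35 against -0.07. The replicate block, which treats same-numbered carbon-ion arrays as pairs, called 2 genes, quantile normalization 0 and the fit on carbon-ion arrays alone 14. No gene was called without the second unirradiated array of mmca, or without either unirradiated array of mca4.

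In the 4 tumours without unirradiated carbon-ion arrays, the later time could be set against day 5. From day 5 to day 20 in the radiation-induced fibrosarcoma 19 of 30 genes rose and 2 fell (28.0% and 16.9% of all genes), in nrs1 16 and 1 (24.5% and 11.2%) and in nfsa 8 and 2 (12.1% and 7.78%), and from day 5 to day 42 in scc7 9 and 2 (15.5% and 17.0%). Medians were 0.45, 0.43, 0.29 and 0.30, against 0.10, 0.12, 0.06 and 0.03 over all genes. Ung rose in all 4, by 1.14, 1.12, 0.51 and 0.45 in that order, for example from 0.05 and 0.20 to 1.16 and 1.37 in the radiation-induced fibrosarcoma. Mgmt fell in 3 of them, by 0.87 in the radiation-induced fibrosarcoma, 1.07 in nfsa and 1.21 in scc7, and differed by -0.32 in nrs1. In scc7 it went from 0.14 and 0.12 to -0.86 and -1.29. Polk fell by 0.71, 0.60 and 0.69 in the radiation-induced fibrosarcoma, nrs1 and nfsa. Ercc1 rose by 1.57 in the radiation-induced fibrosarcoma, from 4.07 and 4.31 to 5.64 and 5.87. Brca2 and Fanca rose in all 4 tumours, Brca2 by 0.80, 0.84, 0.54 and 0.69 and Fanca by 0.39, 0.42, 0.53 and 0.78 in that order. Mitosis genes rose over the same interval in 20 of 22 in the first 3 tumours and 10 of 22 in scc7, and their part was not tested.

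After gamma rays in scc7 no gene differed in limma between days 23 and 35 at 50 Gy (3 at an unadjusted p under 0.05, 1.13% of all genes called) or between day 8 at 30 Gy and day 23 at 50 Gy (1 unadjusted, 2.25% of all genes). In nrs1 Ung (-0.39) and Mgmt (-0.44) were lower on day 15 at 50 Gy than on day 8 at 30 Gy, with no gene higher (9.47% and 3.29% of all genes).

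The wider set of repair genes, 113 genes of the same pathways of which 89 were tested, gave the frame for these members. On day 1 after gamma rays 22 of 89 rose and 27 fell, beside 24.8% and 34.7% of all genes. Rmi1, a partner of Blm, rose by 0.71, Trp53bp1, which protects broken ends from resection, by 0.65 and Rad18, the ubiquitin ligase that calls in translesion polymerases, by 0.56. Wee1, the kinase that holds cells in G2, fell by 0.72 and Bard1, the partner of Brca1, by 0.56. In the fibrosarcomas minus the mammary carcinomas 31 of 89 were lower and 2 higher (17.5% and 4.37% of all genes), led by Polq (-0.99), the polymerase of microhomology joining. Over days 8 to 25 28 rose and 34 fell (34.0% and 39.6% of all genes), with Rmi1 at 1.20 and Rad18 at 0.79. On day 20 after carbon ions 65 fell and 6 rose (43.7% and 27.3% of all genes), with a median of -0.58. Cdc25c, the phosphatase that lets cells enter mitosis, fell by 2.29, Fignl1 by 2.21, Ube2t, the ubiquitin-conjugating enzyme of the Fanconi pathway, by 2.10 and Rad18 by 1.87. Parp3 rose by 1.15. By pathway on day 20, 14 of 15 sensing and checkpoint genes fell, 11 of 16 recombination, 8 of 10 Fanconi, 6 of 7 translesion, 9 of 15 base excision, 10 of 15 nucleotide excision, 3 of 4 mismatch and 2 of 5 end joining genes.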

How the data were processed

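The authors deposited 1 value per probe and array for 121 one-colour CodeLink arrays (6 tumours, 54 groups). By range these are normalized linear intensity values, with 1831 at or below 0. The software and scaling of the deposited intensities are not given in the sources used here, and no genome build enters them. The platform annotation gave a single gene symbol for 21615 of 36227 probes, more than 1 for 681 and no symbol for 13931, and 21487 had an Entrez identifier in RefSeq's GRCm38.p6 gene table.

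The deposited intensities were raised to at least 0.1269 (5th percentile of values above 0) and taken to log2; missing values stayed missing. Probes with values on at least 90% of arrays (28836) were kept, the brightest per gene was used, and genes with a mean log2 under -1.08 (20th percentile) were not tested, leaving 12962 of 15163 genes. A model of group means over all arrays was fitted with limma 3.58.1 (R 4.3.3; moderated variance with trend, 67 residual degrees of freedom), with contrasts against unirradiated arrays, adjusted by Benjamini-Hochberg over all genes. Figures and tables used Python 3.11.15, pandas 2.3.3 and matplotlib 3.10.9. The number of arrays limits the precision. Tested on simulated data of 12962 genes, the model recovered 98% of changes of 0.5 in the gamma day 1 mean, 53% in the radiation-induced fibrosarcoma alone on day 1 and 68% on carbon day 20.

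The members and the lists were chosen with earlier results of these data known, so no list is independent evidence. Named genes are the 32 members, per comparison those called with the largest difference, the called wider-list genes with the largest rise or fall per pathway, and Cdkn1a and Ccng1. The marker lists are p53 targets, mitosis, replication, macrophages, muscle, fibroblast matrix, T and NK cells, endothelium and epithelium. Same-numbered carbon-ion arrays of mca4 deviated together in 15 of 15 group pairs (median r 0.193, lowest 0.124) and those of mmca in 12 of 15. Gamma-ray arrays of scc7 did so in 2 of 3 group pairs (median r 0.15, lowest -0.114). Carbon-ion arrays of the radiation-induced fibrosarcoma had 1 group pair, with r 0.109. Elsewhere the median r was at most 0.04. Other settings tried were quantile normalization, keeping dim genes, missing values at the floor together with quantile normalization, a floor at the 10th percentile (0.1818), the mean of a gene's probes, arrays of the same beam only, a replicate block, 1 value per group, and leaving out each array. Log2 was used for all tests.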

Additional observations from a re-analysis of the deposited data

Results flagged for a closer look

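The following genes changed differently in the fibrosarcomas and the mammary carcinomas 1 day after gamma rays, by limma's test of the difference between the changes themselves, with the tumour kinds as groups of 2 tumours each. Among recombination and Fanconi genes these were Rad54l (-1.19), Rad51ap1 (-0.94), Fanca (-0.89), Brca1 (-0.88; 1 unirradiated mmca array had no value), Blm (-0.77) and Brca2 (-0.55). Among base excision genes they were Ogg1 (-0.79; 1 array each of the radiation-induced fibrosarcoma and mmca at 30 Gy had no value), Ung (-0.76), Xrcc1 (-0.47) and Parp1 (-0.47). Ogg1 and Xrcc1 fell further in mca4 than in nfsa, and Parp1 fell as far in mmca as in nfsa. For these genes the single tumours did not separate by kind. Among the kinases they were Chek1 (-0.77), Atm (-0.68) and Prkdc (-0.29), and beside these Msh6 (-0.53) and Xrcc6 (-0.42). Mgmt (0.74) was the 1 gene of the 16 with the higher value in the fibrosarcomas. With each group averaged to 1 value, none of the 16 was called in limma and 6 genes had an unadjusted p under 0.05. After carbon ions, Fanca differed between the courses of mmca and mca4 over days 1 to 5 by -0.81.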

How the results depend on the processing

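Of 328 called values of single genes, quantile normalization kept 295, ended 30 and reversed 3, missing values at the floor together with quantile normalization kept 236, ended 89 and reversed 3, and the fit on arrays of the same beam kept 309. No filter on dim genes and the floor at the 10th percentile each ended 2, the mean of probes ended 11 and reversed 1, and 1 value per group ended 217. Reversed values, none of them called, were Ercc1 at 70 minus 30 Gy (0.006 under quantile normalization), Ddb2 in nfsa over days 8 to 25 (-0.014, quantile), Apex1 in mca4 over days 8 to 25 (0.03, quantile; 0.004 with missing values at the floor together with quantile normalization), Brca1 on gamma day 1 (0.48) and Mgmt on carbon day 3 (-0.58) under both of these together, Prkdc at 70 minus 30 Gy (-0.40, mean of probes) and Ercc5 in nfsa over days 8 to 25 (-0.055 without 1 unirradiated array, and 0.914 without the other). For Brca1 and Mgmt 1 array of a group had no value, which that setting replaces by the floor; the cause of the others was not tested.

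Counts of called members moved by over 1.5 times as follows. Quantile normalization gave 20 in mmca over days 8 to 25 and 0 for mmca minus mca4. Missing values at the floor together with quantile normalization gave 9 in nfsa and 8 in mca4 on day 1, 14 at 70 minus 30 Gy, 5 on carbon day 1, 15 on carbon day 3 and 2 for mmca minus mca4. Arrays of the same beam gave 15 at carbon hour 6, 15 on carbon day 1 and 14 for mmca minus mca4. The replicate block gave 2 for mmca minus mca4 in place of 1 and ended 9 of the 328 calls, none of them in the carbon-ion courses. With 1 value per group (unadjusted p under 0.05 in parentheses) the counts were 4 (10) for the gamma day 1 mean, 5 (11) in the radiation-induced fibrosarcoma, 0 (4) in mmca, 0 (3) in nfsa and 0 (6) in mca4, 0 (6) for fibrosarcomas minus mammary carcinomas, 1 (6) at 70 minus 30 Gy, 13 (15) for the mean of days 8 to 25, then 6 (11), 0 (4), 2 (9) and 6 (13) by tumour in the same order, 2 (7) at carbon hour 6, 1 (10) on carbon day 1, 0 (0) for mmca minus mca4 and 1 (5) between unirradiated tumours, while 20, 25 and 25 genes were called on carbon days 3, 5 and 20.

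Leaving out 1 array at a time, 4056 of 4291 called values kept their call, 234 lost it and 1 reversed. Counts ranged from 17 to 20 for the gamma day 1 mean, 18 to 22 in the radiation-induced fibrosarcoma, 7 to 11 in mmca, 7 to 17 in nfsa, 10 to 13 in mca4, 13 to 17 for fibrosarcomas minus mammary carcinomas, 19 to 21 at 70 minus 30 Gy, 22 to 24 for days 8 to 25 and 16 to 22, 7 to 13, 18 to 23 and 19 to 23 by tumour, 4 to 5 at carbon hour 6, 6 to 8, 19 to 21, 25 to 25 and 25 to 26 on carbon days 1, 3, 5 and 20, 0 to 1 for mmca minus mca4 and 19 to 25 between unirradiated tumours. Signal near the floor limits Xrcc5 in nfsa.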

Other observations

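Genes measured by more than 1 probe did not always give the same course. Over the 121 arrays the second probe correlated with the brightest one at 0.76 for Brca1 and 0.78 for Atm, at 0.38 for Prkdc and 0.21 for Rad50, and at -0.03 for Xrcc1. Atr, too dim to test, had differences of -0.44 for the gamma day 1 mean, 0.61 over days 8 to 25 and -0.54 on carbon day 20 in the fit without a brightness limit.

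T and NK cell genes, none of them repair genes, were higher in 9 of 9 over days 8 to 25 after gamma rays, with a median of 1.66.

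Of 5 tested endothelial genes, 1 rose and 2 fell on day 1 after gamma rays and 3 rose by day 20 after carbon ions. Of 16 tested p53 target genes, 13 rose and 1 fell on day 1 after gamma rays (median 0.49), and 9 rose and 3 fell by day 20 after carbon ions (median 0.29).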
